A study of Ovis aries with 36 samples.

Results

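Semimembranosus (SM) and semitendinosus (ST) are neighboring hamstring muscles. Their transcriptomes were compared within 4 unrelated male Poll Dorset cross-bred lambs that were 14 months old. The comparison used the 8 libraries titled SM and ST of 36 in the series, paired by the animal number in the labels, and the other 28 libraries came from 7 further muscles of the same lambs. Those 7 were adductor (AD), psoas major (PM), the loin muscle longissimus lumborum (LL), the shoulder muscle supraspinatus (SS), rectus femoris (RF), the cranial part of gluteobiceps (GB), and gluteus medius (GM). All lambs had grazed a soy crop with a grain sorghum supplement, and tissue was taken from the superficial middle of each muscle belly, so a sample does not describe the whole muscle. No treatment or genotype separated the groups. Libraries were made from total RNA of whole tissue, in which fewer fibers of a type and less RNA per fiber cannot be told apart.

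Skeletal muscle mixes slow, oxidative fibers with fast, more glycolytic fibers. Each fiber type builds its sarcomere from its own versions of the myosin light chains, troponins and tropomyosins, and handles calcium with its own pump and storage proteins. A muscle with more slow fibers therefore carries more of the slow versions in its RNA. Homeobox and related transcription factors are set during limb and trunk patterning and remain expressed in adult muscle in patterns that depend on body position.

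The SM libraries held 4407709 to 6360548 counts and the ST libraries 4905225 to 6407360. Between 70.6% and 78.3% of the counts of each library fell in 4 short loci without an Ensembl gene, which left 1009232 to 1744699 counts for the other loci. A count of 3, taken as the floor of detection, corresponded to 0.426 to 1.03 CPM in these libraries. CPM are the counts of tested loci scaled to a common library size after TMM normalization. They are not corrected for length, so levels were compared between muscles, and any ranking of loci by CPM also depends on length.

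Of 12461 loci tested, 89 differed between SM and ST at a false discovery rate (FDR) of at most 0.01 with more than a 2-fold change in the quasi-likelihood F test of edgeR, with p-values adjusted by the Benjamini-Hochberg method. That is 0.714% of the loci, and every FDR below is from that fit unless another is named. Expression was higher in SM for 38 of them (0.305% of the loci tested) and higher in ST for 51 (0.409%). The difference had the same sign in all 4 lambs for 85 of the 89. At an FDR of at most 0.05 with any fold change, 361 loci differed (2.9%), 176 higher in SM (1.41%) and 185 higher in ST (1.48%). The 4 values of a muscle all lay above the 4 of the other at 70 of the 89 loci, against 641 of all tested loci (5.14%). The median log2 fold change (log2FC, SM minus ST) over all tested loci was 0.0025. Leaving out animal 1, 2, 3 or 4 gave 66, 65, 56 and 33 loci, and 20 of the 89 were called whichever of the 4 lambs was left out. With the animal term removed from the fit, 27 loci were called, 12 of them higher in SM.

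**Figure D1:**
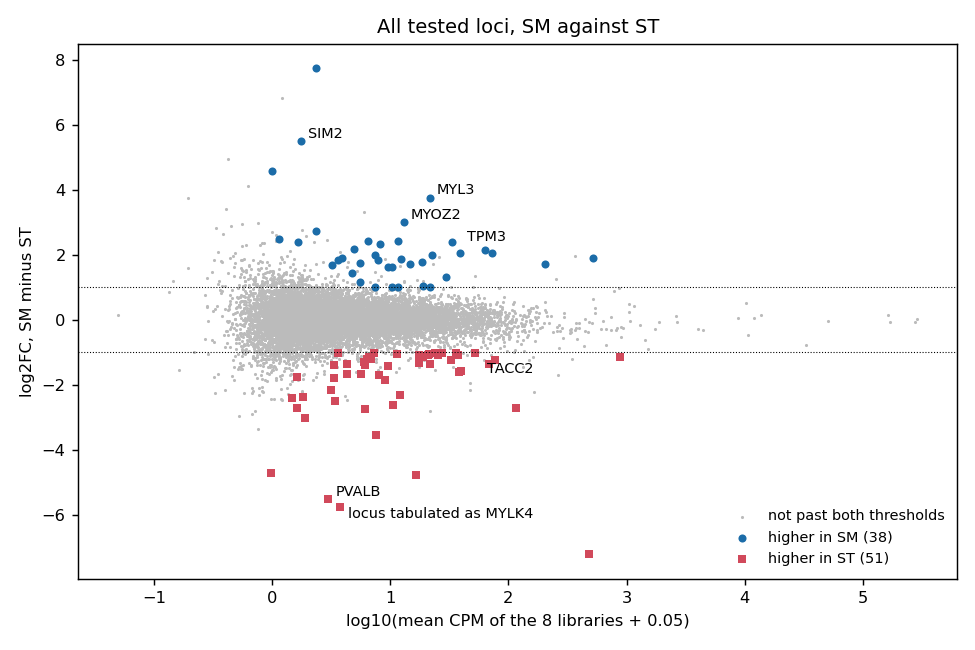
Log2FC (SM minus ST) of every tested locus against the log10 of its mean CPM in the 8 libraries. Blue circles are the 38 loci called higher in SM, red squares the 51 called higher in ST, gray points the rest, and dotted lines mark the 2-fold limits. The lowest red square, near log10 of 2.7, is a locus on chromosome 15 that a single ST library carried.

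The files name loci by Ensembl identifier only. Symbols were assigned where a position tabulated by the study fell within a single tested locus, which gave a name to 29 of 40 tabulated genes. The tabulated genes were picked by the study for differing between ST and SS or between SM and SS in these same lambs, so their directions below are not independent evidence. Of 561 symbols on 22 gene lists, 24 could be placed, and 14 lists had no placed member. Those 14 included the fast-fiber sarcomere list and the lists for adipocytes, tendon, endothelium, pericytes, macrophages, Schwann cells and erythroid cells, so the content of other cell types in SM and ST was not tested here. The label of skeletal muscle rests here on the sarcomere genes below, which were detected in SM and in ST of every lamb.

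Placed genes of the slow-fiber sarcomere were higher in SM. Of 7 placed members of that list of 20, 5 passed both thresholds and 6 had an FDR of at most 0.05, all of them higher in SM, and none was higher in ST. Over all tested loci the shares higher in SM were 0.305% and 1.41%. The members' median log2FC was 2.06. The 7 were all tabulated by the study for ST against SS. MYBPC1 is also on the list but could not be placed. The annotated locus at its position, described below, was called higher in ST (log2FC -1.14, FDR = 2.0e-04).

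MYL3 encodes the essential myosin light chain of slow and ventricular muscle (ENSOARG00000006996, chr19:52560400-52569198, Oar_v3.1). It had 50.2, 18.0, 56.8 and 36.7 CPM in SM of animals 1 to 4, and 1.33, 1.09, 5.30 and 3.66 CPM in ST. Every ST value lay below every SM value, and the lowest SM library was still above 3 times the highest ST library. The log2FC was 3.75 (SE 0.38, FDR = 4.0e-08), and it stayed between 3.39 and 4.05 under every alternative that gave a value.

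MYOZ2 encodes calsarcin-1, a Z-disc protein of slow fibers that binds calcineurin (ENSOARG00000016717, chr6:6264895-6303407). Its levels were 17.4, 11.7, 41.2 and 22.2 CPM in SM and 1.60, 1.53, 4.97 and 2.80 CPM in ST. Animal 3 had the highest value of both muscles and animal 2 the lowest, and the muscles did not overlap. The log2FC was 3.00 (SE 0.32, FDR = 9.9e-08).

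TPM3 encodes slow alpha-tropomyosin, which lies along the actin filament (ENSOARG00000001845, chr1:103039221-103067829). SM held 61.5, 31.4, 96.6 and 64.0 CPM, whereas ST held 11.5, 10.1, 18.6 and 19.6 CPM. No ST value reached the lowest SM value, and the log2FC was 2.06 (SE 0.26, FDR = 4.4e-06).

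The troponin complex carries the calcium switch of the thin filament, and its 3 slow subunits could all be placed. TNNT1, the tropomyosin-binding subunit (ENSOARG00000001823, chr14:59547242-59556889), had 114, 44.5, 152 and 104 CPM in SM and 16.8, 19.7, 23.7 and 32.8 CPM in ST. The muscles did not overlap, and the log2FC was 2.15 (SE 0.32, FDR = 4.3e-05). TNNC1, the calcium-binding subunit (ENSOARG00000004312, chr19:48403558-48406316), had 138, 61.1, 171 and 101 CPM in SM and 19.5, 26.7, 30.0 and 38.2 CPM in ST. It too did not overlap (log2FC 2.05, SE 0.32, FDR = 1.1e-04), although without animal 3 the FDR rose to 0.015.

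TNNI1, the inhibitory subunit (ENSOARG00000018755, chr12:78585640-78596742), had 17.1, 7.67, 31.3 and 16.99 CPM in SM and 2.93, 3.06, 6.13 and 10.3 CPM in ST. SM was the higher muscle in all 4 lambs, but the ST library of animal 4 exceeded the SM library of animal 2. Its log2FC of 1.65 (SE 0.41, FDR = 0.016) missed the stricter FDR. With the likelihood ratio test the FDR was 0.0014, with DESeq2 0.0034 and without animal 4 0.0049, whereas without animal 3 it was 0.22. MYOM3, an M-band protein, was the remaining placed member and had a log2FC of 0.65 (95% interval -0.20 to 1.499, FDR = 0.49).

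**Figure D2:**
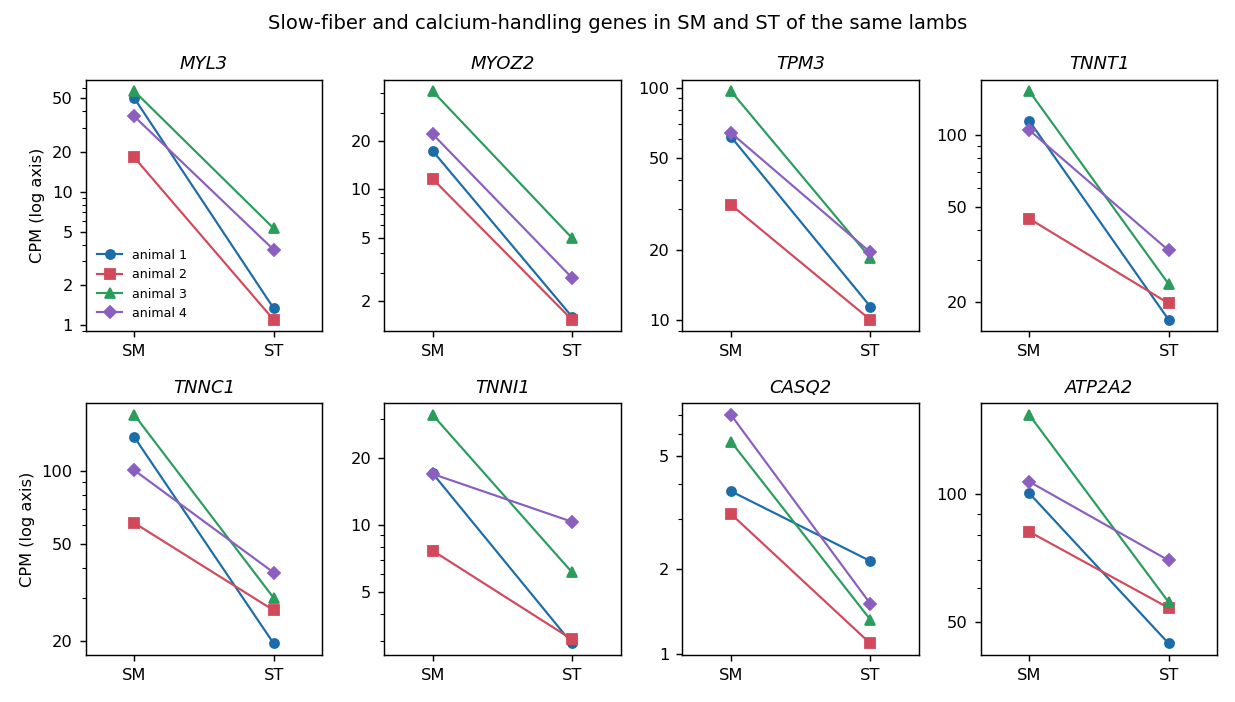
CPM on log axes in SM and ST of each lamb for 8 genes of slow fibers and calcium handling, with 1 line per animal. Every line falls from SM to ST, and for TNNI1 the ST value of animal 4 (10.3 CPM) lies above the SM value of animal 2 (7.67 CPM).

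The study had designed quantitative PCR primers for MYL3, MYOZ2, TNNT1 and TNNC1, and they are shown because they identify the transcripts of 4 of the 5 slow-fiber genes called higher in SM. They are written 5′ to 3′ in lower case with no part marked, and the PCR values were not used here.
MYL3 forward: tctccaagaacaaggacaccg
MYL3 reverse: atcttctgtcagcctctcacc
MYOZ2 forward: accacggttactgagatggg
MYOZ2 reverse: ggtgaagcagaggaaagagc
TNNT1 forward: gaaagaggaagaggagctggt
TNNT1 reverse: ggttctgaagcgctgttgttc
TNNC1 forward: aggagatgattgacgaggtgg
TNNC1 reverse: cttcatgcagcgaaccatcat

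At 4 further positions of sarcomere or kinase genes, the tabulated coordinates covered more than 1 locus or reached beyond the locus, and no symbol was assigned. The position of MYL2, the slow regulatory light chain, and of CCDC63 held a pair of loci with the same interval (chr17:54257918-54303146). The locus with ENSOARG00000017646 had 73.2, 26.0, 89.9 and 36.5 CPM in SM and 12.8, 6.12, 8.45 and 14.9 CPM in ST. Its neighbor with ENSOARG00000017779 had 19.1, 8.24, 34.8 and 17.1 CPM in SM and 2.67, 2.40, 2.65 and 6.47 CPM in ST. Neither overlapped between the muscles, and their log2FC were 2.39 and 2.42 (SE 0.37 and 0.34, FDR = 1.3e-04 and 2.4e-05). Without animal 3 their FDR were 0.019 and 0.012. Which of the pair carries MYL2 was not determined.

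The end of the tabulated interval of MYLK3, a myosin light chain kinase known from heart, fell in the locus with ENSOARG00000015706 (chr14:14547940-14606419). That locus had 8.89, 8.81, 16.1 and 9.05 CPM in SM and 3.47, 1.75, 1.49 and 1.51 CPM in ST. SM was higher without overlap (log2FC 2.42, SE 0.38, FDR = 1.6e-04). Of the pair at the position of MYL6, a light chain of non-muscle and smooth muscle myosin, ENSOARG00000010069 was higher in SM (log2FC 1.88, SE 0.36, FDR = 0.0018) and ENSOARG00000009931 was not called (log2FC -0.18, 95% interval -0.46 to 0.09, FDR = 0.58). The SM library of animal 3 held 42.0 CPM of the first against 7.82 to 16.4 CPM in the other SM libraries, and without animal 3 its log2FC was 1.37 with an FDR of 0.067. At the position of MYH7B, a slow-type myosin heavy chain, ENSOARG00000011188 had 8.53 to 19.5 CPM in SM and 2.19 to 4.97 CPM in ST, with no overlap. Its log2FC of 1.88 had an FDR of 0.032. When only the 8 libraries were fitted its FDR was 1.4e-04, but under the least favorable alternative it was 0.12. The other locus of that position, ENSOARG00000011695, had a log2FC of -0.08 (95% interval -0.44 to 0.27).

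A locus singled out after its values were seen had the highest CPM, uncorrected for length, among those called higher in SM. It lies at chr7:21104083-21157369 and carries an Ensembl gene for which no symbol could be assigned. SM had 750, 408, 1335 and 821 CPM, and ST had 157, 176, 229 and 322 CPM. The muscles did not overlap, with a log2FC of 1.89 (SE 0.32, FDR = 4.6e-04), and the FDR was 0.016 without animal 1 and 0.032 without animal 3.

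The placed calcium handling genes did not all move in the same direction. Of 3 placed members of 30, CASQ2 was called higher in SM and PVALB higher in ST. ATP2A2 was higher in SM at an FDR of at most 0.05, with a change just under 2-fold. Over all tested loci, 0.305% were called higher in SM and 0.409% higher in ST, and 1.41% were higher in SM at the wider FDR. All 3 were tabulated by the study for differing from SS in these lambs. CASQ2, the calsequestrin of cardiac and slow muscle that stores calcium in the sarcoplasmic reticulum (ENSOARG00000020163, chr1:92170833-92243108), had 3.76, 3.13, 5.62 and 6.98 CPM in SM and 2.13, 1.09, 1.33 and 1.51 CPM in ST. The muscles did not overlap (log2FC 1.69, SE 0.36, FDR = 0.0055). That call was lost without animal 2, 3 or 4, with FDR of 0.015, 0.032 and 0.15, and its FDR was 0.012 with only the 8 libraries fitted.

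ATP2A2 encodes SERCA2, the calcium pump of slow and cardiac muscle (ENSOARG00000016226, chr17:53803321-53860163). Its levels were 100.5, 81.6, 154 and 107 CPM in SM and 44.5, 54.0, 55.7 and 69.8 CPM in ST. All SM libraries were above all ST libraries. The log2FC was 0.97 (SE 0.25, FDR = 0.024). Under the alternatives, the log2FC of ATP2A2 ran from 0.80 to 1.11, and its FDR was as high as 0.22.

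PVALB encodes parvalbumin, a soluble calcium buffer of fast fibers (ENSOARG00000019026, chr3:180006084-180067626). The SM libraries held 0.342, 0, 0.268 and 0 CPM, a total of 2 counts, and the ST libraries held 7.73, 6.996, 6.13 and 1.94 CPM, a total of 107 counts. SM was under the floor of 3 counts in every lamb, and the ST library of animal 4 had the lowest ST level. The pooled ratio of ST to SM was 56.3 (95% exact interval 15.2 to 471, which covers counting error only), and the FDR was 1.8e-05. PVALB in RF had 7.32 ± 5.41 CPM (SD, n = 4). In SS it had 17.5 CPM in animal 1 and 1.24 to 2.18 CPM in the other lambs, whereas the means of the other 5 muscles stayed between 0 and 0.665 CPM.

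The difference with the smallest p of all lay on chromosome 20. A locus with ENSOARG00000002495 (chr20:49693089-49762526), to which no symbol could be assigned, had 1.71, 0.426, 1.34 and 0.952 CPM in SM and 27.2, 10.1, 71.6 and 19.4 CPM in ST. ST exceeded SM in every lamb, most in animal 3. The log2FC was -4.78 (SE 0.44, FDR = 8.5e-09), and it was between -5.02 and -4.24 under every alternative that gave a value. An adjoining locus without an Ensembl gene (chr20:49762606-49765006) is tabulated by the study under MYLK4, a member of the myosin light chain kinase family. It had 2 counts over the 4 SM libraries and 149 over the 4 ST libraries, or 3.06 to 13.1 CPM in ST. The pooled ratio was 78.4 (95% exact interval 21.3 to 654), with an FDR of 9.9e-08. In ST, each of these loci was also at its highest level among the 9 muscles.

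Another locus higher in ST, with ENSOARG00000010742 (chr18:16183925-16783606), had 1.03, 1.56, 0.803 and 1.11 CPM in SM and 18.4, 5.03, 16.2 and 16.4 CPM in ST. The SM libraries were close to each other, and animal 2 had the lowest ST level. Its log2FC was -3.55 (SE 0.46, FDR = 4.6e-06). No symbol could be assigned.

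SIM2 encodes a transcription factor of the bHLH-PAS family with a role in limb muscle development (ENSOARG00000014072, chr1:267018135-267070595). The SM libraries had 4.44, 1.71, 3.75 and 3.49 CPM, 61 counts in all, and the ST libraries had a single count, in animal 4. SIM2 was thus detected in SM of every lamb and at or under the floor in ST. The pooled ratio of SM to ST was 57.9 (95% exact interval 10.02 to 2326), and the FDR was 2.0e-07. An unannotated locus just before it (chr1:266994223-267001200) had 5.47, 2.56, 5.09 and 5.397 CPM in SM, 87 counts in all, and 0 counts in every ST library. With 3 counts set for the 4 ST libraries together, the pooled ratio of SM to ST would be 27.5. From the counts as observed, the lower limit of the 95% exact interval was 21.9 (FDR = 1.4e-06). Means of SIM2 in the other muscles ran from 0.604 CPM in PM to 4.03 CPM in AD. ST had the lowest mean of the 9, at 0.054 CPM. The means of PM, SS (0.645 CPM) and RF (0.723 CPM) were also near the floor of detection.

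The other placed patterning genes did not pass the test. HOXD8 had 4.97 to 13.1 CPM in SM and 9.07 to 12.5 CPM in ST (log2FC -0.32, 95% interval -0.83 to 0.18, FDR = 0.60). HOXC10, a homeobox gene of the hindlimb region, had 2.84 to 4.44 CPM in SM and 2.82 to 4.37 CPM in ST (log2FC -0.08, 95% interval -0.66 to 0.50, FDR = 0.94). For both genes the ranges of SM and ST overlapped, and their intervals leave room for differences of up to 0.83 on the log2 scale. Of 58 patterning symbols only these 3 could be placed. PITX1 and TBX4 were not among them.

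In ST, TACC2 was higher as well. It encodes a centrosomal and microtubule-binding protein (ENSOARG00000006729, chr22:40823458-41053395), with 43.1, 21.3, 38.0 and 35.9 CPM in SM and 58.9, 48.3, 91.8 and 77.6 CPM in ST. The muscles did not overlap. Its log2FC of -1.03 (SE 0.20, FDR = 0.0018) sat just past the fold threshold, and the call was lost without animal 2, 3 or 4 (FDR of 0.015, 0.032 and 0.043).

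At the position the study tabulates under MYBPC1, a myosin-binding protein C of slow fibers, lies the annotated locus ENSOARG00000015112 (chr3:170450235-170553298). Its CPM, uncorrected for length, were among the highest of the loci called. It had 430, 497, 657 and 660 CPM in SM and 1152, 956, 1270 and 1486 CPM in ST, with no overlap. This locus was lower in SM, opposite to the slow-fiber genes above (log2FC -1.14, SE 0.18, FDR = 2.0e-04), and without animal 4 its FDR was 0.018. The study tabulated an unannotated unit there, and 3 unannotated loci shared the interval, with log2FC from -0.67 to -0.36 and FDR of 0.10 to 0.68. No symbol was assigned to any of them.

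At the position of STXBP5L, a syntaxin-binding protein of the secretory machinery, ENSOARG00000019977 had 1.11 to 3.13 CPM in SM and 4.74 to 8.53 CPM in ST (log2FC -1.68, SE 0.33, FDR = 0.0024). The ranges did not overlap, and the FDR was 0.077 without animal 4 and 0.017 without animal 2. ENSOARG00000020009 of the same position had a log2FC of -0.17 (95% interval -0.94 to 0.59). At the position of FABP3, the fatty acid carrier of heart and slow muscle, ENSOARG00000001603 had 15.7, 5.12, 23.0 and 19.05 CPM in SM and 8.53, 3.28, 4.14 and 4.10 CPM in ST. SM was higher in all 4 lambs, though the ST value of animal 1 exceeded the SM value of animal 2 (log2FC 1.61, SE 0.34, FDR = 0.0043). The FDR was 0.11 without animal 3 and 0.089 without animal 4. ENSOARG00000001618 of that position had levels of 1.71 to 3.41 CPM in SM and 2.13 to 3.06 CPM in ST.

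Several regulators and matrix genes, given here outside the rule for named genes because the study tabulates them, were short of a threshold. TMEM2, a cell-surface hyaluronidase, had 20.5, 16.1, 9.64 and 13.8 CPM in SM and 34.1, 27.1, 23.5 and 23.1 CPM in ST. The muscles did not overlap, and its FDR of 6.9e-04 came with a change under 2-fold (log2FC -0.84, SE 0.15). EYA1, a transcriptional coactivator tied to the fast fiber program, had 0 to 1.11 CPM in SM and 1.33 to 3.02 CPM in ST (log2FC -1.55, SE 0.45, FDR = 0.049). ZFP36L1, an RNA-binding protein that promotes mRNA decay, had 13.4 to 23.0 CPM in SM and 7.96 to 15.7 CPM in ST (log2FC 0.62, SE 0.14, FDR = 0.010).

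Other tabulated genes were not called. CHI3L1 sat in a locus that joins a pair of Ensembl genes and is therefore uncertain (log2FC 0.19, 95% interval -0.40 to 0.78). SMYD2, a lysine methyltransferase, had 21.03 to 35.2 CPM in SM and 21.9 to 37.3 CPM in ST (log2FC -0.01, 95% interval -0.34 to 0.31). The intervals of METTL21C (-0.86 to 2.30), PDLIM1 (-0.67 to 0.73) and PPP1R3D (-0.15 to 0.77) included 0. For METTL21C, the ST library of animal 1 held 6.67 CPM against 0.875 to 1.29 CPM in the other ST libraries. Of the genes of the synapse and of ion channels, 3 are given here and none of them was called. DLG2, a synaptic scaffold, had a log2FC of 1.31 (95% interval 0.47 to 2.15), RIMS2, an active zone protein, 0.88 (0.12 to 1.63), and the potassium channel gene KCNMA1 -0.39 (-0.71 to -0.06), with FDR of 0.080, 0.23 and 0.22. FREM2, an extracellular matrix gene, had a log2FC of 1.19 (95% interval 0.37 to 2.01, FDR = 0.11). Of 17 placed genes tabulated for ST against SS, 6 were called higher in SM and none higher in ST. Of 16 tabulated for SM against SS, 1 was called higher in SM and 2 higher in ST. Over all tested loci, 0.305% were called higher in SM and 0.409% higher in ST, and the study had picked both sets on these lambs.

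Some called loci were neighbors. At 9 places, called loci lay within 100 kb of another called locus, and within each place all called loci changed in the same direction. Whether this exceeds what any set of tested loci would show was not tested. Of the called loci, 30.3% shared their interval with another tested locus, against 19.7% of all tested loci. The place with the most lay in a single interval of chromosome 12 (chr12:18028459-18720283), which holds a unit that the study tabulates under ESRRG, an orphan nuclear receptor of oxidative muscle. All 51 tested loci there share the interval, 49 of them without an Ensembl gene. Of these 51, 8 were called and 12 had an FDR of at most 0.05, all higher in SM, against 0.305% and 1.41% of all tested loci. A log2FC above 0 was found at 50 of the 51, with a median of 1.24. The 8 called loci had log2FC of 1.61 to 2.48, and none of them carried an Ensembl gene. The locus with 2.48 had 0.166 to 0.533 CPM in ST, under the floor of detection in every ST library. Loci that share an interval may share transcripts and are not independent of each other.

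Summed over the interval, SM held 318, 229, 96.9 and 167 CPM and ST held 107, 75.4, 99.8 and 27.2 CPM. Animal 3 had slightly more in ST, so the direction was not shared by every lamb. ST had the lowest mean of the 9 muscles, at 77.5 ± 36.2 CPM, and SM had 202 ± 93.7 CPM (SD, n = 4). The next mean was that of PM, at 228 ± 213 CPM, with libraries from 107 to 547 CPM, so SM and PM overlapped. LL varied most, from 133 to 1262 CPM. The annotated loci were ENSOARG00000011335, with a log2FC of 1.16 (95% interval 0.27 to 2.04, FDR = 0.16), and ENSOARG00000022702, with 0.52 (95% interval -0.94 to 1.98, FDR = 0.80).

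**Figure D3:**
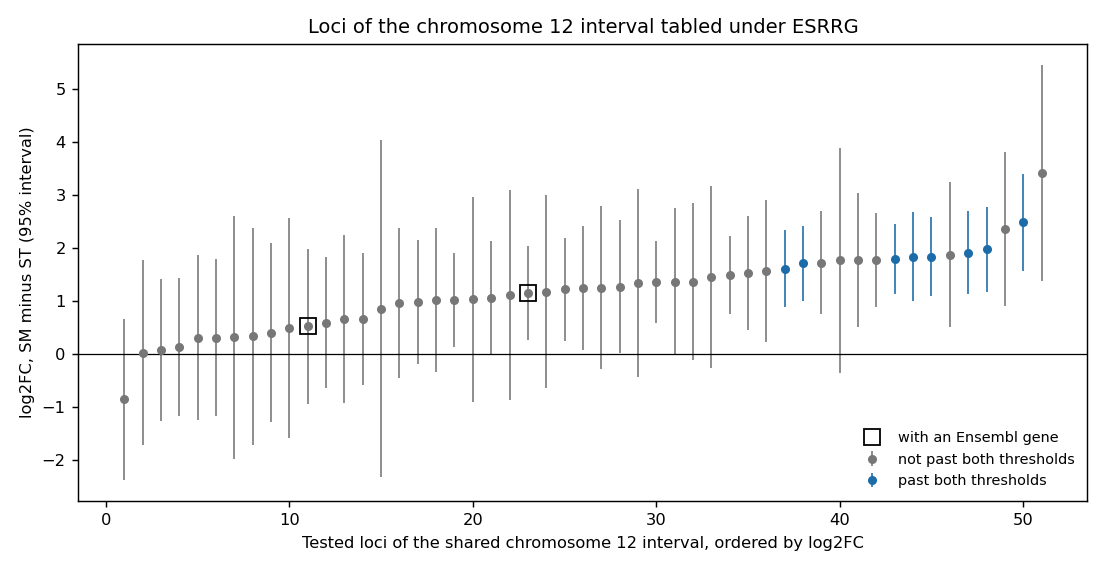
Log2FC (SM minus ST) with its 95% interval for the 51 tested loci that share an interval on chromosome 12, ordered by log2FC. Blue points passed both thresholds (8 loci), gray points did not, and open squares mark the 2 loci with an Ensembl gene. All but 1 lie above 0.

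A second neighboring pair was on chromosome 9 (chr9:89631198-89675620). Its stronger member, ENSOARG00000013116 (chr9:89664737-89675620), had 293, 193, 453 and 305 CPM in SM and 87.5, 69.3, 121 and 93.8 CPM in ST, without overlap. The log2FC was 1.72 (SE 0.21, FDR = 1.4e-06), and the neighbor had 1.42. Only RF had a lower mean of this locus than ST, at 74.2 CPM against 93.0 CPM.

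Of the 89 called loci, 22 (24.7%) had no Ensembl gene, close to the 25.4% of the loci tested. One of these calls stood on a single library. At chr15:17226738-17264088 the ST library of animal 2 had 3841 CPM, against 1.66 to 2.59 CPM in the other ST libraries and 1.61 to 5.71 CPM in SM. The fitted log2FC was -7.22 (FDR = 0.0024). Without animal 2 it was 0.72 with an FDR of 0.39, and with only the 8 libraries fitted the FDR was 0.69. Of the 51 loci called higher in ST, 9 had over 50% of their summed ST level in 1 library. That share was not computed for all tested loci or for the loci called higher in SM, so it cannot be called particular to these.

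The 7 other muscles show on which side of the pair a difference lay. Against their mean, 195 loci were called for ST (1.56% of the loci tested), 85 higher and 110 lower, and 89 were called for SM (0.714%), 33 higher and 56 lower,. These contrasts share the libraries of SM and ST with the comparison above and are given side by side only. The split for SM was not stable: without animal 1 it was 42 higher and 20 lower, without animal 2 20 and 42, without animal 3 32 and 14, and without animal 4 21 and 15. For ST it ran from 49 higher and 85 lower without animal 1 to 68 and 64 without animal 4. Whether SM and ST differ in these counts was not tested.

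The slow-fiber genes were lowest in ST. MYL3 in ST lay below the mean of the 7 muscles by a log2FC of -4.39 (SE 0.34, FDR = 7.0e-11), whereas in SM the value was -0.64 (SE 0.24, FDR = 0.082). For MYOZ2 the values were -2.94 in ST (SE 0.28, FDR = 3.1e-09) and 0.06 in SM (SE 0.19, FDR = 0.88). TNNT1 was -2.59 in ST and -0.44 in SM, TNNC1 -2.48 and -0.43, and TPM3 -2.68 and -0.61. ATP2A2 was low in both, with -2.08 in ST (SE 0.22, FDR = 4.4e-08) and -1.11 in SM (SE 0.20, FDR = 7.1e-04). ST had the lowest mean of the 9 muscles for each of these 6 genes. Counted from the highest mean, SM had rank 5 of 9 for MYOZ2, rank 6 for TPM3, TNNT1 and TNNC1, rank 7 for MYL3 and rank 8 for ATP2A2.

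TACC2 differed from the 7 muscles on the SM side, with -0.77 in SM (SE 0.16, FDR = 0.0018) and 0.26 in ST (SE 0.14, FDR = 0.31). The annotated locus at the MYBPC1 position had -0.85 in SM (SE 0.15, FDR = 4.2e-04) and 0.28 in ST (SE 0.13, FDR = 0.22). On chromosome 20, ENSOARG00000002495 departed on both sides, with -2.15 in SM (SE 0.45, FDR = 0.0028) and 2.63 in ST (SE 0.21, FDR = 1.1e-10). HOXD8, which was not called between SM and ST, was above the mean of the 7 muscles in both, by 0.87 in SM (SE 0.20, FDR = 0.0053) and 1.196 in ST (SE 0.19, FDR = 4.4e-05). Its means were lowest in RF and SS, at 1.42 and 0.606 CPM, and LL, at 14.1 CPM, had a higher mean than SM or ST.

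Over the 89 called loci, ST had the highest mean of the 9 muscles at 37 and the lowest at 32, whereas SM was the highest at 6 and the lowest at 22. Over all tested loci, ST was the highest or the lowest at 28.4% and SM at 33.7%. The ranks come from the same libraries that gave the calls and are a description.

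**Figure D4:**
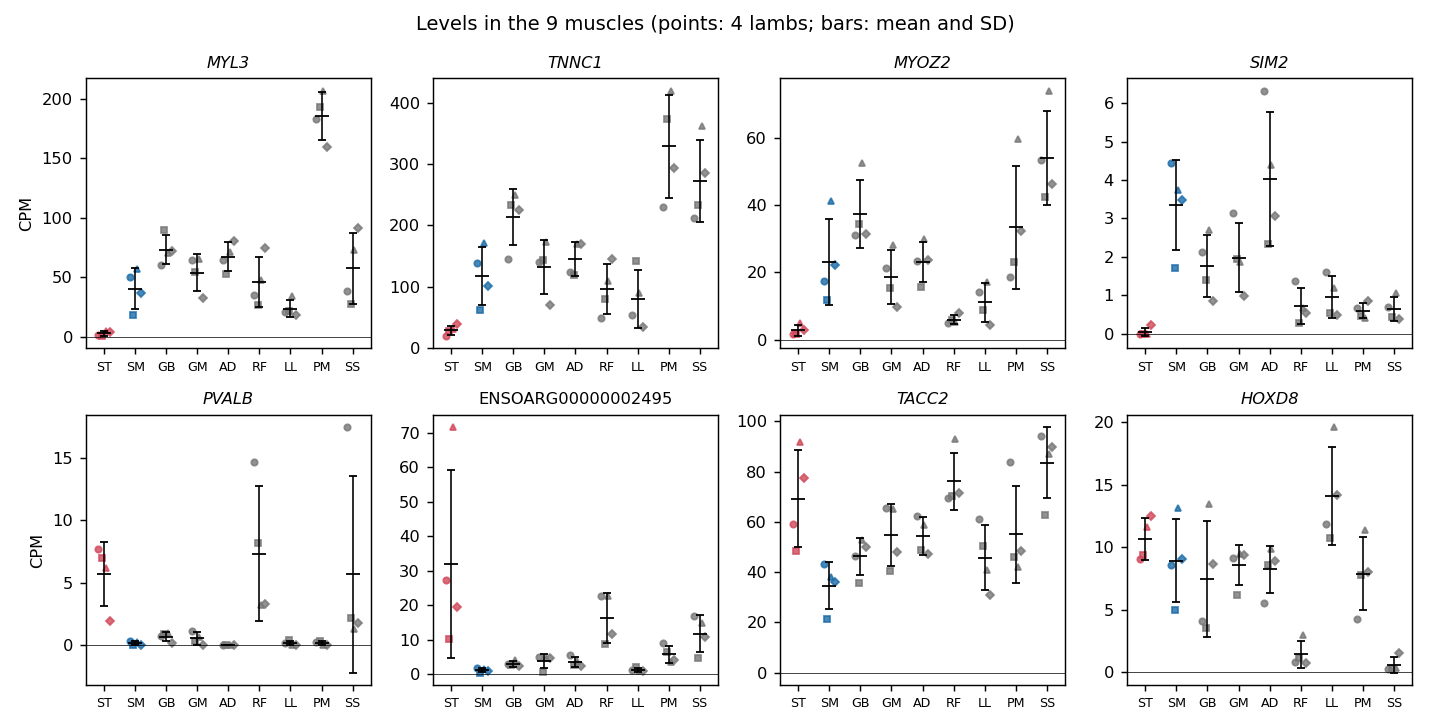
CPM in the 9 muscles for 7 named genes and ENSOARG00000002495, with 1 point per lamb (red for ST, blue for SM, gray for the others, 1 marker shape per animal) and bars for the mean and SD (n = 4). ST is lowest for MYL3, TNNC1, MYOZ2 and SIM2 and highest for ENSOARG00000002495, SM has the lowest mean of TACC2, and HOXD8 has means of 8.92 CPM in SM and 10.6 CPM in ST.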

How the data were processed

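Total RNA of 36 muscle samples was sequenced as paired-end reads on an Illumina HiSeq. Per the labels and the study's methods, reads were aligned by the authors with TopHat2 2.0.13 to the Oar_v3.1 assembly, assembled transcripts with Cufflinks 2.2.1, merged them with the Ensembl annotation and counted with htseq-count. The values the authors deposited are raw read counts per locus. Whether strand was used in counting is not given in the sources used here, so overlapping loci cannot be told apart with certainty.

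Each file had 31530 entries, of which 394 repeats of a locus were dropped, leaving 31136 loci. After edgeR's filterByExpr by muscle, 12461 were tested with TMM scaling, muscle and animal as terms, all 36 libraries and the quasi-likelihood test (edgeR 4.0.16, R 4.3.3). SE was taken from the F statistic. The script was tested on simulated data. DESeq2 1.42.0, the likelihood ratio test, other scalings, filters and thresholds, and leaving out each animal were alternatives.

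The labels give an animal number that pairs the libraries. Same-numbered SM and ST libraries had deviations that correlated by 0.369, 0.409, 0.0471 and 0.225 for animals 1 to 4. The mean correlation between SM and ST libraries of different numbers was -0.0864. Values had been centered on the mean of each muscle, which nearly fixes this mean once the same-number correlations are known. It is therefore no separate evidence for the pairing. No replicate libraries were duplicates (chi-square per degree of freedom of 7.51 to 18.8 over 12 pairs). The 4 lanes could not be tied to samples. Adjusted p-values (FDR) follow Benjamini and Hochberg. A symbol needed at least 95% of a tabulated interval within a single tested locus. No Ensembl identifier matched the RefSeq table at hand. Genes named were placed symbols past both thresholds with the same sign in 4 lambs, the 2 loci without symbol with the smallest p in each direction, and a fixed set of fiber, patterning and fat genes, of which MYH7, ADIPOQ, LEP and FABP4 could not be placed. The members and lists were chosen with earlier results of these data known. For loci described one by one, fitted fold changes were replaced by count ratios where a muscle had at most 3 counts. The figures of log2FC and the values over the chromosome 12 interval keep the fitted changes. A few genes under that rule are not reported here.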

Additional observations from a re-analysis of the deposited data

Results flagged for a closer look

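Among 174 groups of 4 values (SM levels, ST levels and within-lamb differences, log2 CPM, of the loci described), 16 had a value whose gap to its neighbor, as a share of the group's range, passed Dixon's 95% critical value. That is 9.2%. The nominal rate of 1 in 20 is no yardstick here, because the differences reuse the SM and ST values. Some of the loci were also chosen after their values were seen. Share of the range is given for each.

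On chromosome 15, the locus carried by the ST library of animal 2 had 0.95 for ST and 0.903 for the difference. The chromosome 20 locus with ENSOARG00000002495 had 0.892 for the difference, where animal 3 stood apart at -5.41. For the chromosome 18 locus, animal 2 was low in ST (0.902) and in the size of the difference (0.86). SIM2 in ST gave 1 because a single library had any count. The unannotated locus before SIM2 gave 0.902 for SM and 0.902 for the difference, both for a low SM value of animal 2. ENSOARG00000017779 at the MYL2 position had a high ST value in animal 4 (0.90), and the locus at the MYLK3 position a high SM value in animal 3 (0.956).

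Among loci that were not called, TMEM2 had 0.967 for the difference (animal 3) and MYOM3 had 0.916 (animal 1). METTL21C had 0.832 for ST and 0.832 for the difference (animal 1). Unannotated loci tabulated under RORA had 0.864 and 0.849 for ST (animal 1).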

How the results depend on the processing

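The count of 89 loci between SM and ST became 144 with the likelihood ratio test, 143 with that test on only the 8 libraries, 229 with no low-count filter, 47 with at least 10 counts in every SM and ST library and 176 at an FDR of at most 0.05. Without the animal block it was 27. Leaving out a lamb gave 33 to 66, and 31 of the 89 were still called without animal 4. RLE scaling (88), library sizes without the 4 largest loci (90) and DESeq2 (91, of which 67 were shared) stayed near 89. For SM against the 7 muscles, 89 became 146 with the likelihood ratio test, 24 without the animal block (19 higher, 5 lower), 222 with no filter, 30 with at least 10 counts, 223 at an FDR of at most 0.05, 373 with no fold threshold and 36 to 62 without a lamb. For ST against the 7 muscles, 195 became 127 without the block, 339, 78, 326 and 355 under the same settings, and 132 to 205 without a lamb. Leaving SS out of the reference, chosen after seeing the data, gave 72 for SM and 185 for ST. The log2FC of the chromosome 15 locus ran from -8.12 without animal 4 to 0.72, a reversed sign, without animal 2. Of 23 named loci past both thresholds, 12 stayed past them under every alternative that gave a value. The causes were not tested.

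Depth limits low genes: in the 8 libraries, levels under 1.03 CPM rest on few reads.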

Other observations

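Some loci called higher in ST were high mainly in a single ST library. A locus with an Ensembl gene on chromosome 3 had 30.1 CPM in ST of animal 1 and 1.33 to 9.49 CPM in the other ST libraries, against 0.853 to 1.61 CPM in SM, and in animal 3 SM was higher than ST. A locus on chromosome 13 had 139 CPM in ST of animal 1 and 19.5 to 63.6 CPM in the other ST libraries, against 14.1 to 26.2 CPM in SM, and in animal 3 SM was higher too. These loci were chosen after their values were seen. Of the 51 loci called higher in ST, the highest ST value was that of animal 1 at 16, animal 2 at 7, animal 3 at 15 and animal 4 at 13. The same tally was not made over all tested loci.

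Unannotated loci, 3 in number, that the study tabulates under RORA, a nuclear receptor, had lower values in SM in all 4 lambs without being called. Their log2FC were -0.82 (FDR = 0.018), -0.74 (FDR = 0.025) and -0.51 (FDR = 0.25, edgeR's quasi-likelihood test). Without animal 2 the second had a log2FC of -1.09 with an FDR of 0.0065, the only alternative in which it was called. Under other alternatives its log2FC shrank to as little as -0.62 and its FDR rose to as much as 0.29. An unannotated locus at chr1:230473614-230478546 had 2.84 to 7.18 CPM in SM and 0.80 to 0.875 CPM in ST (log2FC 2.44, FDR = 0.037 in the same test), and ST lay near the floor of detection in every lamb.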
